A study of Mus musculus with 20 samples.

Results

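Chromatin accessibility in male liver was described by a list of 179 genomic regions of 500 bp, of which 102 were listed as increased and 77 as decreased in Midn-T over WT mice. The regions were chosen by the raw p-values of the authors' own test of Midn-T against WT, with a threshold of 0.05 and no adjustment, on 2 livers per genotype. The 2 ATAC-seq lists of the series hold 396 regions in all, and the other 217 come from female liver, where an FDR of 0.1 was used. The direction of each peak and its place in the list are therefore what the choice used, and neither is a result here. The list holds positions and directions with no count, fold change or p-value, so the strength of each peak, the values just inside and just outside the threshold, and the precision of each call are not known. The number of peaks tested in males is likewise not analysed here. The number that would pass a raw p-value of 0.05 without any difference therefore cannot be set beside the 179. The study states that no male peak met the FDR threshold it applied to females, and it treats the male list as exploratory. It gives variability between samples as the reason for using raw p-values. The listed regions are therefore candidates, and their directions are not established changes.

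Midn encodes midnolin, a nuclear protein that carries short-lived transcription regulators, many of them products of immediate-early genes, to the proteasome without prior ubiquitination. In both genotypes the mice carried the Midn XTR allele, an invertible gene-trap cassette in an intron of Midn. In WT mice the cassette was left in its original orientation (genotype Midn XTR), and in Midn-T mice Cre driven by the albumin promoter, which acts in hepatocytes, had turned it to the trapping orientation (genotype Midn TR). Livers came from untreated mice of 11 to 14 weeks, and the nuclei for ATAC-seq came from frozen whole tissue, so cells other than hepatocytes contributed. Samples were grouped by library name and genotype. The title of 1 of the 4 male samples, the first Midn-T library, names it as WT, and over both sexes the titles of 5 of 8 samples differ from their library names. No deposited table gives a value for a single library, so the list could not be computed again without the library concerned.

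ATAC-seq uses the Tn5 transposase, which cuts DNA that is free of nucleosomes, so peaks mark promoters and enhancers in use. Promoters of widely used genes lie mostly in CpG islands, stretches rich in GC and in unmethylated CpG, and are open in nearly every cell type. Enhancers lie farther from genes, are poorer in CpG and differ between cell types, and in hepatocytes many are bound by nuclear receptors, HNF and C/EBP factors. The GC box GGGCGG is bound by SP and KLF factors, CCAATNA holds the CCAAT core of NF-Y, and AGGTCA is the element that nuclear receptors bind singly or as repeats.

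The sequences of 4 decreased promoter peaks are shown first, since GC-rich promoters made up most of the decreased peaks. They were read from GRCm39 on the plus strand, and annotated exons were left out. The stretches lie at chr9:20863920-20864003 (Dnmt1, the maintenance DNA methyltransferase), chr14:74969482-74969721 (Esd, an esterase), chr16:76810306-76810545 (Usp25, a deubiquitinase) and chr5:86320663-86320860 (Uba6, a ubiquitin-activating enzyme). Dnmt1 is shown because its RNA passed the test described further on, and the other 3 were picked, with their values known, for several GC boxes outside exons. Capitals mark the GC box on either strand. In Uba6 the first 2 matches overlap.
Dnmt1: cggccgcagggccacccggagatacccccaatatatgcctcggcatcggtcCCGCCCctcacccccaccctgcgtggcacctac
Esd: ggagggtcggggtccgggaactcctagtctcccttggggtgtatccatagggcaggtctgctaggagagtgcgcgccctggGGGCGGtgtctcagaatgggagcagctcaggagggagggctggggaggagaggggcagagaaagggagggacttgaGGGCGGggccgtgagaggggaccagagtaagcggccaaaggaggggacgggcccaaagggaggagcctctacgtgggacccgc
Usp25: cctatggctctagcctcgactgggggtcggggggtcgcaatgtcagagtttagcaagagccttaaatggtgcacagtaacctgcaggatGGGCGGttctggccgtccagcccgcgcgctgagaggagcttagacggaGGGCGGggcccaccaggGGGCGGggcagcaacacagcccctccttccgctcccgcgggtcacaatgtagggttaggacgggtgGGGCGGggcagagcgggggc
Uba6: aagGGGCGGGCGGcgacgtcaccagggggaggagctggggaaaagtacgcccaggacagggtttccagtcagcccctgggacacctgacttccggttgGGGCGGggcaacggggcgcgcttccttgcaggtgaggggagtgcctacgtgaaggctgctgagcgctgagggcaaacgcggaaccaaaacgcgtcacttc

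Of the increased peaks 70 of 102 lay away from the promoters of protein-coding genes, and those nearest to Fasn, Slc2a2 and Ces1e are shown because the RNA of these genes was higher in Midn-T males. Fasn encodes fatty acid synthase, Slc2a2 the hepatic glucose transporter GLUT2, and Ces1e a carboxylesterase. The stretches lie at chr11:120721532-120721831, in an intron of the neighbouring gene Ccdc57, at chr3:28759972-28760234, in an intron of Slc2a2, and at chr8:93960538-93960837, between genes. Capitals mark AGGTCA in Fasn, the E-box CACGTG in Slc2a2 and the ONECUT and CUX element ATNGATC in Ces1e, with 1 match each.
Fasn: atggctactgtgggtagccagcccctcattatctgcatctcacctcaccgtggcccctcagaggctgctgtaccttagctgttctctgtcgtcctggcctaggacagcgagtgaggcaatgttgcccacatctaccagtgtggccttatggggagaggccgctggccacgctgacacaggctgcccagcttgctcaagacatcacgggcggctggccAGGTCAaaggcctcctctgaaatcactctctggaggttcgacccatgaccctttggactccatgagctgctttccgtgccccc
Slc2a2: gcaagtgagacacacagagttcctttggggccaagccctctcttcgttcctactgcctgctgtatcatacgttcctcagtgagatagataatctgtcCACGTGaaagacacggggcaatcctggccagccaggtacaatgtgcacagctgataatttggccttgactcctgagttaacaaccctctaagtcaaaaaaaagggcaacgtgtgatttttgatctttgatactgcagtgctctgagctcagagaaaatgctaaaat
Ces1e: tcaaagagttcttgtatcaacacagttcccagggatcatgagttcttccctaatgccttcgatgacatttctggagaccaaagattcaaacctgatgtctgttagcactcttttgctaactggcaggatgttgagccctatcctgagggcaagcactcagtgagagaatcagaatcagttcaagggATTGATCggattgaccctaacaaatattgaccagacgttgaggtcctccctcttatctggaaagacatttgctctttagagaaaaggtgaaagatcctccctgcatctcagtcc

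The promoter peaks of Osbp, a sterol-binding transfer protein (chr19:11942770-11943009), and Ppm1k, the phosphatase that activates branched-chain ketoacid breakdown (chr6:57512546-57512785), are shown for the NF-Y element, which was present in more of the increased than of the decreased promoter peaks. Capitals mark CCAATNA on either strand, with 3 of the 5 matches of the Osbp peak and both of the Ppm1k peak inside the stretch.
Osbp: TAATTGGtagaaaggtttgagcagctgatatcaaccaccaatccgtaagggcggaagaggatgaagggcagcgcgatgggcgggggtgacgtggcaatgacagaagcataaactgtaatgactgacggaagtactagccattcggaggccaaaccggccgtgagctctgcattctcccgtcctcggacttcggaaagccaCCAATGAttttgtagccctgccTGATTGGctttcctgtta
Ppm1k: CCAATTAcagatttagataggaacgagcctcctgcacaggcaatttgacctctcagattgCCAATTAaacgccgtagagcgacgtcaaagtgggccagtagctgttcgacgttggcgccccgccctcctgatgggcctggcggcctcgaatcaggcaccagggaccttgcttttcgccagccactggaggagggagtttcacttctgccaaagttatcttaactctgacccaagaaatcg

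The DR1 site was searched as CAAAGGTCA, the end of a direct repeat of AGGTCA bound by HNF4A and by RXR with PPAR. The first unit of the repeat was not required. This word was found in 3 increased peaks, nearest to Bcl6, Hopx and Pga5. Neither stretch shown here holds the exact full repeat. The matches nearest to Hopx (chr5:77279861-77279940) and Pga5 (chr19:10635273-10635352) lay outside exons and are in capitals below.
Hopx: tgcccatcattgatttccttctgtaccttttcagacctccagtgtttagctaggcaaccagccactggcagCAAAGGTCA
Pga5: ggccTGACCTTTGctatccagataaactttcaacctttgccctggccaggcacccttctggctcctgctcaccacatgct

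The 2 decreased peaks nearest to Nmi and Anxa3 held a repeat of the kind shown at chr2:51837089-51837208 and chr5:96994667-96994786, which carries no CpG. They are shown because their composition set them apart from the other decreased peaks.
Nmi: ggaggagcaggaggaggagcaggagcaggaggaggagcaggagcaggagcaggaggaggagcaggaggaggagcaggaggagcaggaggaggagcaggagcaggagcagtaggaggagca
Anxa3: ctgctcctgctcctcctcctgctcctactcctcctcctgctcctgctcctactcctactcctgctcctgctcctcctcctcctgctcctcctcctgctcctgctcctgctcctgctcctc

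Most decreased peaks sat at gene starts. Of the 77, 57 (74.0%, 95% Wilson interval 63.3 to 82.5%) had their centre within 1000 bp of the transcription start site of a protein-coding gene, against 32 of the 102 increased peaks (31.4%, 23.2 to 40.9%). With the start sites of all annotated genes, long noncoding RNAs included, the share of increased peaks was 52.9% and that of decreased peaks 81.8%. The median distance from centre to start site was 122 bp for decreased peaks and 10636 bp for increased ones. A start site lay inside the peak in 49 decreased and 29 increased peaks. Regions are not replicates and were chosen by the same contrast, so these shares were not tested, and the intervals cover counting error only.

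Among promoter peaks, the centre lay downstream of the start site in 37 of 57 decreased and in 12 of 32 increased peaks, with medians of 37 bp downstream and 74 bp upstream. Start sites on both strands lay within 1000 bp of 10 decreased promoter peaks (17.5%), such as those of Ints12, a subunit of the Integrator complex, and Ro60, an RNA-binding autoantigen. The same held for 8 increased promoter peaks (25.0%), such as that of Crat, carnitine acetyltransferase. The centre fell in an annotated UTR in 36 decreased and 18 increased peaks. It fell in an intron of a protein-coding gene in 11 decreased and 24 increased peaks, in an intron of another gene such as a long noncoding RNA in 2 and 20, and between genes in 14 and 23. The increased peaks were thus spread over introns and intergenic sequence, and 52 of them lay farther than 10000 bp from the nearest start site, against 12 decreased ones. All 20 chromosomes with peaks were autosomes or X, and X held 1 peak, a decreased one nearest to Utp14a, a nucleolar protein of ribosome assembly.

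**Figure D1:**
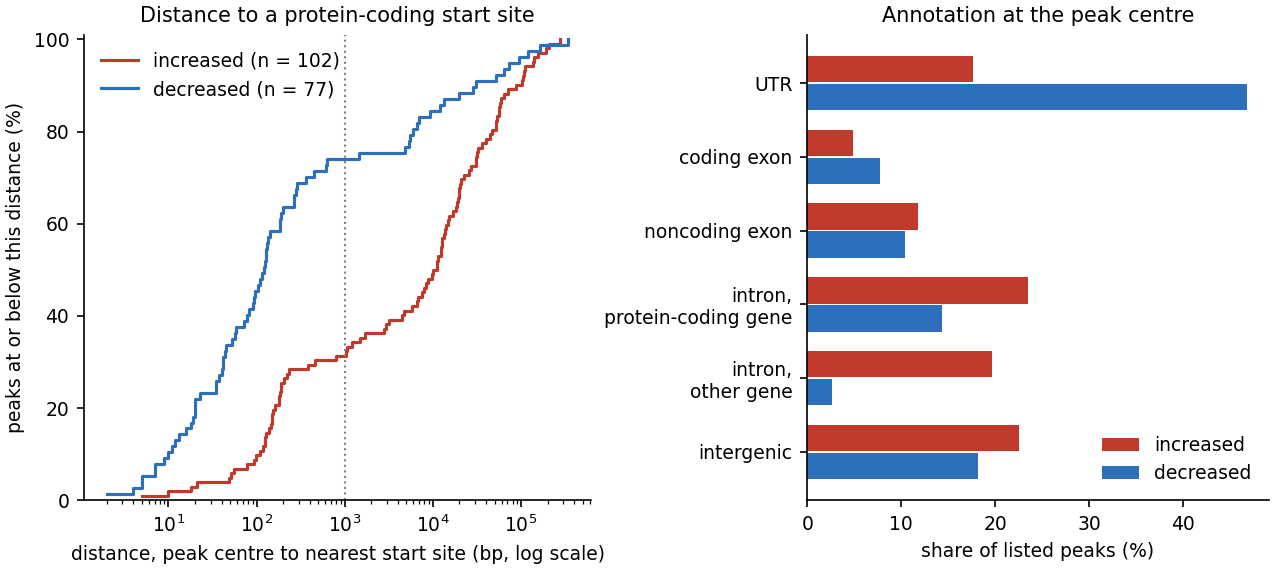
Left, the share of the 102 increased (red) and 77 decreased (blue) peaks whose centre lies at or within a given distance (bp, log scale) of a protein-coding start site, with the promoter distance of 1000 bp dotted. Right, the share of each set by the annotation at the peak centre, where UTR holds 36 decreased and 18 increased peaks.

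Decreased peaks were rich in GC and CpG. Their median GC content was 64.8%, with quartiles of 57.2 and 67.4%, and their median number of CpG was 38. Increased peaks had a median GC content of 51.8%, with quartiles of 49.8 and 56.5%, and 8.5 CpG. For comparison, the median was 55.0% over 500 bp windows centred on 21603 protein-coding start sites and 41.6% over 51236 windows placed every 50000 bp along the genome. The difference was smaller among promoter peaks, with medians of 66.0% in decreased and 59.7% in increased ones, and among the other peaks, with 54.0% (n = 20) and 50.4% (n = 70). Neither set of windows was chosen for open chromatin, and peaks that were tested but not listed were not analysed here. The windows set beside the motifs below share this limit.

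CpG island criteria, a GC content of at least 50% and an observed over expected CpG ratio of at least 0.6, were met by 48 of 57 decreased promoter peaks (84.2%) and 22 of 32 increased ones (68.8%). Of all promoter windows 41.9% met them. Away from promoters 4 of 20 decreased and 3 of 70 increased peaks met them, against 0.675% of the windows spaced along the genome. The 4 decreased ones were nearest to Atf3, Tfap2a, Trim43c and Utp14a. The decreased promoter peaks with the highest GC content belonged to Slc4a7, a bicarbonate transporter (75%, 64 CpG), and Usp25 (73.2%, 59 CpG).

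**Figure D2:**
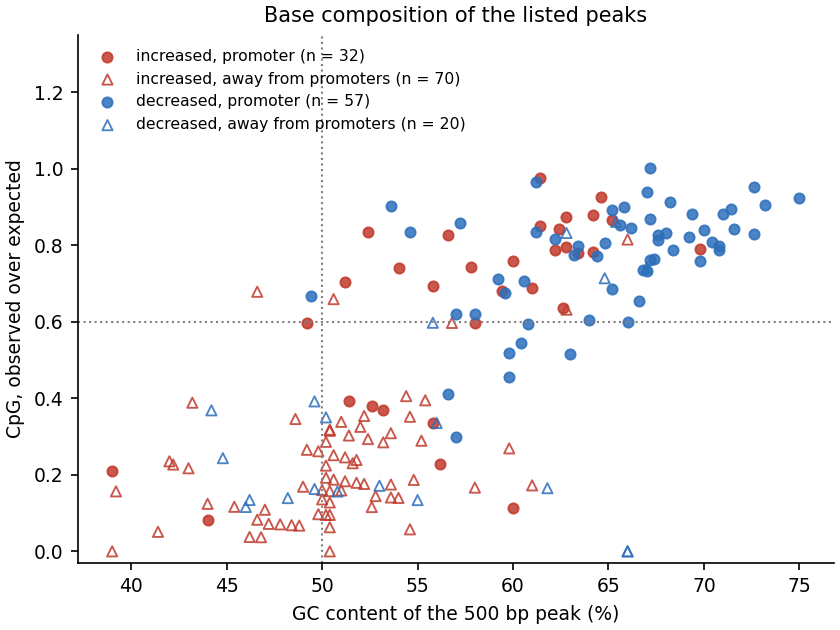
GC content (%) of each 500 bp peak against its observed over expected CpG ratio, for increased (red) and decreased (blue) peaks, with filled circles at promoters and open triangles elsewhere. Dotted lines mark the CpG island criteria of 50% and 0.6, and most filled blue points lie above and to the right of both. The 2 repeat peaks without CpG lie at a GC content of 66%.

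The peaks were mostly unique sequence. In 141 of 179, every 31-base word of the peak occurred once in the genome, and in 8 fewer than 50% of the words did. Of these 8, 7 were decreased and 1 increased. The increased one, at the start of Mup1, a major urinary protein gene of a cluster of near-identical copies, had 10.2% unique words and a median of 13 copies. The decreased ones nearest to Nmi and Anxa3 had 6.81 and 7.66% unique words, with medians of 155 and 144 copies. Those at Rnaset2a and Rnaset2b, near-identical ribonuclease genes on the same chromosome, had 19.8 and 26.4%. The others were nearest to Abhd18, Trim43c and Dnah7c. Reads of such peaks can be placed at another copy, so their position and their nearest gene are uncertain, and whether this bears on their calls was not tested. No peak had over 50% of its words in the mitochondrial genome.

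GC boxes were frequent in decreased peaks. At least 1 match on either strand was found in 55 of 77 decreased peaks (71.4%, 60.5 to 80.3%) and in 24 of 102 increased ones (23.5%, 16.4 to 32.6%). All promoter windows held one in 48.2% and the windows along the genome in 4.58%. Within promoters the shares were 86.0% of decreased and 59.4% of increased peaks. Among promoter windows that met the CpG island criteria the share was 82.7%, beside 89.6% of the 48 decreased and 77.3% of the 22 increased peaks of that kind. Decreased peaks held up to 10 matches (Slc4a7), and 39 of them held at least 2. The longer CACCC box GGGTGTGG of KLF factors was found in 3 decreased (3.90%) and 3 increased peaks (2.94%), against 5.44% of promoter windows.

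The NF-Y element CCAATNA was found in 27 increased (26.5%) and 15 decreased peaks (19.5%), near the 21.6% of promoter windows and 22.0% of genome windows. At promoters it was found in 53.1% of the 32 increased peaks and 24.6% of the 57 decreased ones. Within CpG island promoters these shares were 50 and 27.1%, beside 20.6% of all such windows. The Osbp peak held 5 matches and that of Ensa, an inhibitor of a mitotic phosphatase, 4. Among decreased peaks, that at H2ac15, a histone H2A gene, held 3.

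AGGTCA was found in 43 increased (42.2%, 33.0 to 51.9%) and 23 decreased peaks (29.9%, 20.8 to 40.8%), against 23.7% of promoter windows and 25.2% of genome windows. Away from promoters the share was 54.3% of increased and 50% of decreased peaks. In the female list it was 50.8% of decreased peaks away from promoters and 20.7% of all increased peaks. The increased peaks with the element included those nearest to Fasn, Aldh1l1, Acsl5, Ppp1r3b, Bcl6 and Bhlhe40. The NFI element TTGGCA was found in 36.3% of increased and 23.4% of decreased peaks, against 21.3 and 22.8% of promoter and genome windows. The THAP1 element TNNGGGCA was found in 30.4 and 15.6%, against 22.7 and 17.9%.

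Exact matches to elements of liver factors were few. The HNF4A site CAAAGTCCA was found in no increased peak, which allows a share of up to 3.63% (Wilson), and in the decreased peaks nearest to Grm8 and Mthfsl. These 2 peaks were among the 20 decreased ones away from promoters. The word is rare, with 0.731% of promoter and 0.613% of genome windows, both below that limit. Its absence from increased peaks therefore cannot show a lack of HNF4A sites there. The study reports HNF4A motifs as enriched in the increased peaks. The DR1 site was found in 2.94% of increased peaks and in no decreased one, against 0.694% of promoter windows. The ONECUT and CUX element was found in 13 increased peaks (12.7%), Slc2a2 and Ces1e among them, which was close to the 14.5% of genome windows. In decreased peaks it was found once (1.30%), nearest to Grin2b. FOXA sites (TGTTTAC) were found in 1.96% of increased and 5.19% of decreased peaks, against 7.36% of genome windows. Away from promoters these shares were 2.86% and 15% (3 of 20).

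Elements of growth and stress factors were searched next. The cyclic AMP response element TGACGTCA was found in 4 decreased peaks (5.19%), 3 of them at the promoters of Cdkn2b, Dnajc27 and Mettl15, and in 3 increased ones (2.94%). It was found in 2.62% of all promoter windows and in 4.40% of those that met the CpG island criteria, as most decreased peaks did. Cdkn2b encodes a cyclin-dependent kinase inhibitor. The E2F sites TTTCCCGC and TTTGGCGC were found in 3 decreased peaks each (3.90%), the latter at Dnmt1, against 2.07 and 0.884% of promoter windows. Among promoter windows that met the CpG island criteria the shares were 3.81 and 1.58%. The AP-1 element TGANTCA was found in 15.7% of increased and 15.6% of decreased peaks, against 14.3% of genome windows. Away from promoters these shares were 20% and 35% (7 of 20), and at promoters 6.25 and 8.77%. The remaining elements searched were ETS CCGGAAGT, NRF1 GCGCATGCG, YY1 AAGATGGCG, EGR1 GCGTGGGCG, HNF1 GTTAATNAT, C/EBP TTNNGCAAT, the glucocorticoid receptor element ACANNNTGT, STAT5 TTCNNNGAA, CTCF CCACNAGGG, PU.1 GAGGAAGT and the E-box. None of these matched more than 15.6% of the peaks of either direction. The E-box was found in 14.7% of increased and 15.6% of decreased peaks, against 10.3% of promoter and 4.76% of genome windows. Of promoter windows that met the CpG island criteria 15.3% held it. ETS matched 5.19% and EGR1 1.30% of decreased peaks, and PU.1 4.90% of increased ones. In promoter windows these shares were 5.24, 1.07 and 4.39%. A match is a run of letters and does not show that a factor was bound.

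**Figure D3:**
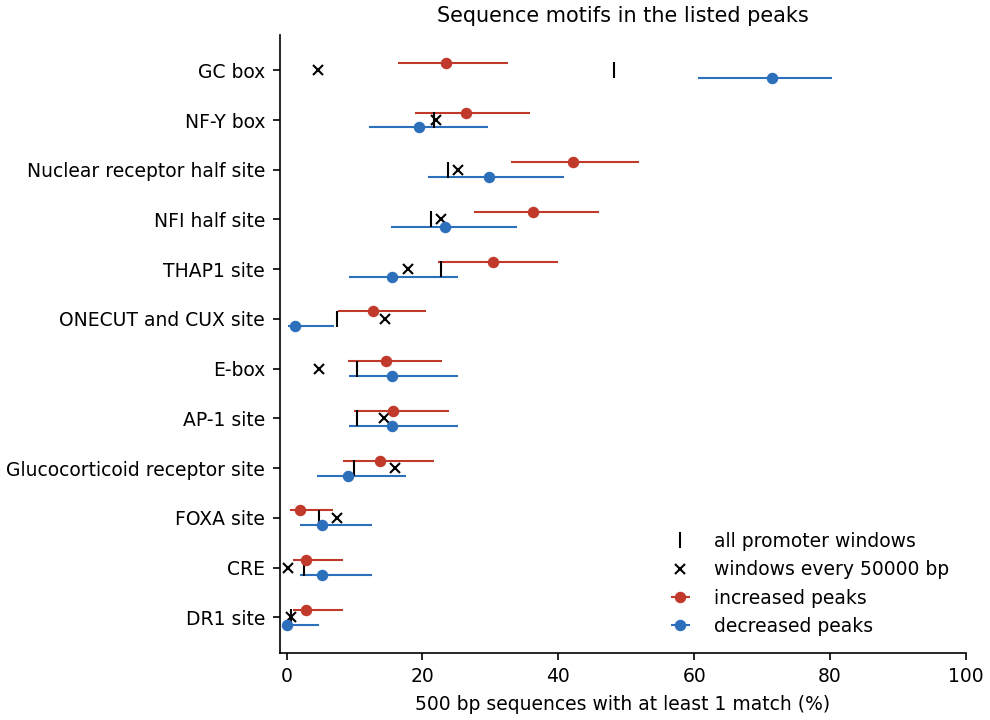
Share (%) of the 102 increased (red) and 77 decreased (blue) peaks with at least 1 exact match to each of 12 elements, with 95% Wilson intervals, beside all promoter windows (bars) and windows every 50000 bp (crosses). The GC box stands out with 71.4% of decreased and 23.5% of increased peaks.

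The nearest protein-coding genes were 177, of which 100 belonged to increased and 77 to decreased peaks, with none in common. Nearest genes of increased peaks had a median level of 348 mean normalized counts per kb of exon in male liver RNA, and 55 of 91 tested (60.4%) lay above 192, the upper quartile of all tested genes. Those of decreased peaks had a median of 58.6 per kb, and 13 of 71 (18.3%) lay above it. The median over all tested genes was 69.5 per kb. These levels are means over both genotypes and were not used to choose the peaks. In bulk tissue fewer cells of a type and less RNA per cell cannot be told apart.

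Genes of hepatic metabolism lay next to increased peaks. Of 226 genes in 11 lists, which run from liver metabolism and liver factors to clock, mitochondrial and immediate-early genes, 14 were nearest to an increased peak (14% of 100) and 1 to a decreased peak (1.30% of 77, Atf3 of the immediate-early list), while the lists hold 1.04% of the 21751 protein-coding genes. The lists are no independent evidence, since 9 of these 14 are genes that the study itself named at these peaks, as genes that led its ranking by RNA change in males, so their RNA differences given below are no independent evidence either. The other 5 were Bcl6, Klf15, Ppp1r3b, Ces1e and Bhlhe40. The lists of bile acid genes (17) and of plasma proteins (21) had no member nearest to a male peak. Of all 21751 protein-coding genes 177 were, so few or none would be found in lists of these sizes at that share.

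In lipid metabolism, the peak of Fasn was centred 5779 bp upstream of its start site. The peak of Acsl5, an acyl-CoA synthetase, lay 2921 bp inside the gene, and that of Abcd3, a peroxisomal fatty acid transporter, 59570 bp upstream. Further increased peaks were nearest to Fads2, a fatty acid desaturase, and to the lipid hydrolases Mgll and Faah, which were chosen after their values were seen. The RNA of Fasn was higher in Midn-T, as given below. That of Abcd3 had a log2 fold change of 0.38 ± 0.16 (SE, adjusted p = 0.33) and that of Acsl5 one of 0.19 ± 0.12 (adjusted p = 0.65), neither of which passed the test.

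In carbohydrate metabolism, the peak of Slc2a2 was centred 7933 bp inside the gene. That of Ppp1r3b, which brings protein phosphatase 1 to glycogen, lay 157359 bp upstream. An increased peak lay 11404 bp upstream of Ldha, lactate dehydrogenase A, whose RNA had a log2 fold change of -0.49 ± 0.20 (SE, adjusted p = 0.33). In one-carbon and amino acid metabolism, increased peaks lay at the promoter of Sardh, sarcosine dehydrogenase (204 bp inside the gene), in an intron of Aldh1l1, formyltetrahydrofolate dehydrogenase, and at the promoter of Ppm1k. Sardh and Aldh1l1 are highly expressed in liver, with 4478 and 4618 normalized counts per kb. Their log2 fold changes were 0.25 ± 0.14 (adjusted p = 0.59) and 0.38 ± 0.15 (SE, adjusted p = 0.28).

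Transcription regulators next to increased peaks included Klf15, a fasting-responsive activator (11134 bp upstream), Bcl6, a repressor of lipid genes (101380 bp upstream), and Bhlhe40, a clock-linked repressor (8893 bp from the start site). The Klf15 and Aldh1l1 peaks lay 64034 bp apart. Max, the partner of Myc, had an increased peak at its promoter and was named after its values were seen. None of these passed the RNA test, with a log2 fold change of 0.34 ± 0.17 (SE, adjusted p = 0.47) for Bhlhe40 and -0.18 ± 0.18 (SE, adjusted p = 0.85) for Klf15. That of Bcl6 was 0.12 with an SE of 0.76, so the estimate was imprecise.

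Efna1, a ligand of Eph receptors, and Noct, a rhythmic phosphatase, were each nearest to 2 increased peaks. The Efna1 pair lay 12505 and 7607 bp upstream. The Noct peaks lay 30970 bp apart, 18417 and 1032 bp upstream of different start sites of the gene. The RNA of Efna1 and Noct had log2 fold changes of -0.49 ± 0.49 (SE, adjusted p = 0.85) and -0.071 ± 0.78 (SE, adjusted p = 0.99). Among the other genes named by the study, increased peaks lay at the promoters of Mtfr1, a regulator of mitochondrial fission, Gas1, a growth arrest protein, and Shld1, a DNA repair protein. Others lay in an intron of Lrpprc, a regulator of mitochondrial mRNA, and nearest to Dsg2, a desmosomal cadherin, and Ttc39c. The peak at Erg28, a sterol synthesis protein, lay closest to the start site of its neighbour Ttll5. Of these, Mtfr1 had a log2 fold change of 0.26 ± 0.11 (SE, adjusted p = 0.36) and Dsg2 one of 0.21 ± 0.10 (SE, adjusted p = 0.42).

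Nearest genes of the decreased promoter peaks had a median of 57.9 normalized counts per kb, against 69.5 over all tested genes. Beyond Dnmt1, they included, as examples chosen after their values were seen, Vps18 of the endosomal HOPS and CORVET complexes, Golga7, a subunit of a palmitoyl transferase, Lsm8 of the spliceosome, Mrps9 of the mitochondrial ribosome, and Ints12. Promoter peaks of the growth factor gene Vegfc and of the transcription factor gene Ets2, chosen likewise, were also listed as decreased. Of a list of Midn, immediate-early genes and other midnolin substrates, 1 of 19 genes was nearest to a listed peak, Atf3. Of all 21751 protein-coding genes 177 were nearest to a male peak. The decreased peak of Atf3 lay 6663 bp upstream in a CpG-rich exon of a noncoding RNA (67.0% GC, 40 CpG). The RNA of Atf3 had a log2 fold change of -1.35 with an SE of 1.42 (adjusted p = 0.86). No peak of either list was nearest to Midn itself, whose RNA, counted over all exons, had a log2 fold change of 0.10 ± 0.12 (SE, adjusted p = 0.89). Counts over all exons include those before the cassette and do not check the trapped exons. The study checked these otherwise. It reports less Midn by qPCR across the cassette, and loss of RNA reads from the exons after it, in Midn-T livers of both sexes.

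RNA-seq of male liver, from 3 WT and 3 Midn-T mice, gave a measure that the choice of peaks did not use. Of the nearest genes of increased peaks, 3 of 91 tested were higher in Midn-T at an adjusted p-value under 0.1 (Wald test of DESeq2) and 0 were lower, where 0.712% of all 15168 genes tested were higher and 0.494% lower. At an unadjusted p-value under 0.05 there were 12 (13.2%), against 9.86% of all tested genes. The 3 genes were Ces1e, Slc2a2 and Fasn, of which Ces1e alone kept an adjusted p-value under 0.1 when the adjustment took in all genes with a p-value. All 3 peaks lay away from promoters.

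Ces1e had a log2 fold change of 0.51 ± 0.13 (SE, DESeq2 adjusted p = 0.027). Slc2a2 followed with 0.64 ± 0.19 (SE, adjusted p = 0.082). Fasn had 0.85 ± 0.26 (SE, adjusted p = 0.085). In each the peak and the RNA were listed in the same direction.

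Of the nearest genes of decreased peaks, 1 of 71 tested was lower, Dnmt1, with a log2 fold change of -0.41 ± 0.12 (SE, DESeq2 adjusted p = 0.093). With adjustment over all genes with a p-value this call was lost. None was higher, and 5 (7.04%) had an unadjusted p-value under 0.05, against 9.86% of all tested genes. The peak of Dnmt1 was centred 141 bp upstream of a start site. The largest difference without a call was that of H2ac15, with -1.36 ± 0.50 (SE, adjusted p = 0.24).

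Over all nearest genes the RNA differences were centred close to 0. The median log2 fold change was -0.012 over the 91 genes of increased peaks, 0.035 over the 71 of decreased peaks and -0.010 over all tested genes. Of the genes of increased peaks 43 of 91 were above 0, and of those of decreased peaks 39 of 71. For the 54 decreased peaks at promoters of tested genes the median was 0.058, and for the 60 genes of increased peaks away from promoters 0.050. Crat, with an increased peak at its promoter, had -0.76 ± 0.30 (SE, adjusted p = 0.30).

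**Figure D4:**
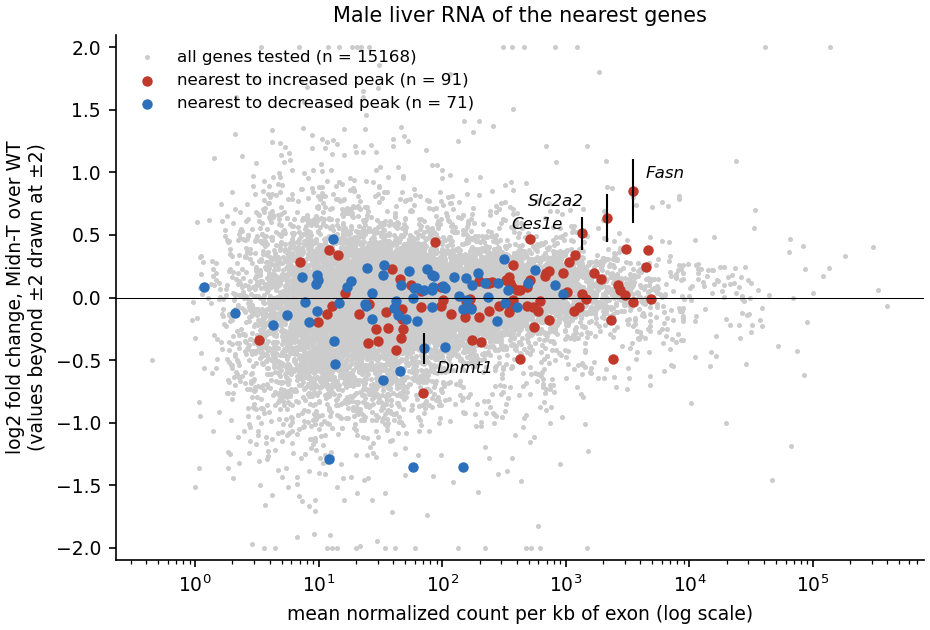
Mean normalized count per kb of exon (log scale) against the log2 fold change in male liver RNA (Midn-T over WT), for all 15168 tested genes (grey) and the nearest genes of increased (red) and decreased (blue) peaks, with values beyond 2 drawn at the edge. Bars give the SE of the 4 genes that passed the test, and the red points lie to the right of most blue ones.

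In female liver RNA none of the 165 nearest genes in the table passed an adjusted p-value of 0.1 (DESeq2), where 0.237% of all 18149 genes did, and 4 (2.42%) had an unadjusted p-value under 0.05, against 2.96% of all genes. The log2 fold changes in females were -0.067 ± 0.11 for Ces1e, -0.10 ± 0.11 for Slc2a2, 0.30 ± 0.15 for Fasn and 0.14 ± 0.12 for Dnmt1. A test of the difference between the sexes over all genes in both tables gave no nearest gene an adjusted p-value under 0.1, where 51 of 15129 genes (0.337%) had one, so few or none would be among the nearest genes at that share. The adjusted p-values of this z-test were 0.15 for Ces1e, 0.16 for Slc2a2, 0.77 for Fasn and 0.24 for Dnmt1.

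Hepatocyte markers dominated the male RNA. The 8 fixed markers, Alb among them, had 8763 to 338346 normalized counts per kb, against at most 1374 for the 8 markers of Kupffer cells and other leukocytes and at most 484 for those of endothelial, stellate and bile duct cells. All 8 leukocyte markers had log2 fold changes below 0, from -1.78 to -0.41, and none of the 7 with an adjusted p-value passed the test (lowest adjusted p = 0.28). The lowest value was that of S100a8, which had no adjusted p-value. All 4 bile duct markers had log2 fold changes above 0, from 0.091 to 1.07, and none passed the test (lowest adjusted p = 0.38). The tables give no level per genotype, and the part of cell composition in the peak list was not tested. Of the markers only Stab2, a scavenger receptor of sinusoidal endothelium, was nearest to a listed peak, an increased one in its own intron. An increased peak also lay 31105 bp upstream of Cd163, a macrophage receptor.

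The male list shared no region with the female list. No male peak overlapped a female one, and the centres of 2 (1.12% of the male and 0.922% of the female list) lay within 10000 bp of one. At Ocln, which encodes the tight junction protein occludin, a decreased male promoter peak lay 8158 bp from a decreased female peak. At Dnah7c a decreased male peak lay 6576 bp from an increased female one, with few unique words in the male peak. The 177 male and 184 female nearest genes had 5 in common, which besides these were Itpr1, Shld1 and Klf14, each with an increased male and a decreased female peak. The lists were drawn with different thresholds. How many regions or nearest genes unrelated lists of these sizes would share was not worked out. The lack of overlap is therefore not read as a difference between the sexes.

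The composition of the decreased peaks also differed from that of the female list. Promoters held 8 of 67 decreased female peaks (11.9%) and 22 of 150 increased ones (14.7%). The GC box was found in 14.9% of the decreased female peaks, whereas the glucocorticoid receptor element was found in 38.8% of them, against 9.09% of the decreased male peaks, and the FOXA site in 20.9%. Away from promoters the glucocorticoid receptor element was found in 37.3% of 59 decreased female and 20% of 20 decreased male peaks, and the FOXA site in 16.9 and 15%. Under 50% unique words were found in 80 female peaks (36.9%) and 8 male ones (4.47%).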

How the data were processed

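ATAC-seq compared 2 WT with 2 Midn-T livers per sex, and RNA-seq 3 with 3. ATAC-seq reads were mapped by the authors to the GRCm39 build (STAR 2.7 per the labels), and they removed duplicates, called peaks with MACS2, merged them and trimmed them to 500 bp. Reads per peak were counted by the authors with featureCounts and compared in SARTools with edgeR under TMM scaling. The deposited peak lists hold positions and directions only. For RNA-seq the authors assigned reads with HTSeq and ran DESeq2 within each sex. In the deposited RNA tables the signal column is the mean of counts divided by size factors over 6 samples. The log2 columns hold the authors' fold change of Midn-T over WT and its standard error, the score column the authors' Wald statistic, and the p-value columns the authors' Wald p-values and adjusted values. The RNA results used here are thus these deposited columns of the authors' own comparison, since the files hold no value per sample. Depth per library is therefore unknown.

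Start positions were read as counted from 0, which gives every peak a length of 500 bp, and are printed counted from 1. Peaks were joined to the nearest start site of a protein-coding transcript in GENCODE M39 by their centre, and the sequence was read from GRCm39. Motifs were searched as exact words on both strands, N standing for any base. Unique sequence was measured in words of 31 bases over the genome. RNA p-values were adjusted anew (Benjamini-Hochberg) across those genes that carry an adjusted value in the deposited table, with a threshold of 0.1. The sexes were compared with a two-sided z-test of the fold changes. Calculations used statsmodels 0.14.6, scipy 1.17.1, numba 0.67.0, pandas 2.3.3 and numpy 2.4.6 in Python 3.11.15, with matplotlib 3.10.9 for plots, and the motif search and the adjustment were tested on simulated data.

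The peaks, gene lists, motifs and alternatives were chosen with earlier results of these data known. Genes were named by a rule: those the study names at increased male peaks, nearest genes that passed an RNA test, nearest genes in one of the 11 lists, peaks within 10000 bp of a female peak, and genes nearest to 2 peaks. Others were named after their values were seen. Shares over regions were given without a test. The study describes the samples of a group as biological replicates. The alternatives were other promoter distances and start sites, the central 200 bp, peaks away from promoters, peaks without repeated sequence, other thresholds, adjustments and neighbourhoods for RNA, and other overlap rules.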

Additional observations from a re-analysis of the deposited data

How the results depend on the processing

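With start sites of all annotated genes, long noncoding RNAs included, 52.9% of increased peaks lay at a promoter, and the share of decreased peaks stayed inside its interval. Away from promoters, the median GC content was 50.4% in increased and 54% in decreased peaks, the GC box was found in 7.14 and 30%, the NF-Y element in 14.3 and 5%, and AGGTCA in 54.3 and 50%. In the central 200 bp, the GC box was found in 15.7% of increased and 51.9% of decreased peaks, the NF-Y element in 13.7 and 7.79%, and AGGTCA in 24.5 and 13.0%, as a shorter sequence holds fewer matches. The nearest genes of increased peaks with a start site within 1000 bp had a median log2 fold change of -0.079 (n = 31). The count of called nearest genes fell from 4 to 1 (Ces1e) at an adjusted p-value under 0.05, and likewise to 1 with adjustment over all genes with a p-value, where more genes enter the adjustment. Over all genes the shares called were 0.567% (86 of 15168) and 0.310% (94 of 30298) under these rules. Over all protein-coding genes within 50000 bp the 4 calls were the same genes, out of 294 tested. At the main rule 0.712% of all 15168 genes tested were called higher and 0.494% lower. The wider neighbourhood thus added tested genes but no call. The count of male peaks at a female peak was 2 with centres within 10000 bp. For the other 22 motifs, 34 of 132 alternative shares left the 95% interval, 23 of them in the central 200 bp, 11 away from promoters and 0 without repeated sequence. No paired analysis was possible because the files give no values per sample, and for the same reason no library could be left out.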
